A study of Arabidopsis thaliana with 8 samples.

Results

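Transcripts of catalases, cytosolic ascorbate peroxidases, superoxide dismutases (SODs) and a mitochondrial alternative oxidase were followed in whole Arabidopsis thaliana seedlings. The 10 genes were taken by locus, and were chosen with earlier results of these data known. They were CAT1 (AT1G20630), CAT2 (AT4G35090), CAT3 (AT1G20620), APX1 (AT1G07890), APX2 (AT3G09640), FSD2 (AT5G51100), FSD3 (AT5G23310), MSD1 (AT3G10920), CSD3 (AT5G18100) and AOX1A (AT3G22370). Of these, 9 were among the 20701 gene loci of the deposited table and all 9 were tested. APX2 has no row there and was not analysed here. AOX1A is neither a catalase, a peroxidase nor a SOD, and is described here as a mitochondrial companion of MSD1.

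The seedlings were of the Columbia accession, 10 days after germination, kept at 22 °C in 18 h light and 6 h dark. They were either wild type (2 libraries) or carried CAHB12, a coffee homeodomain-leucine zipper gene, behind the constitutive 35S promoter (2 libraries). Each library was made from a pool of 50 seedlings, and the labels call the pools biological replicates. The design text speaks of a pair of transgenic lines, and no label ties a replicate to a line. All loci in the table carry Arabidopsis names, so the coffee transcript that defines the transgenic group was not measured here. Total counts were 15682546 and 19436632 in wild-type replicates 1 and 2, and 15424261 and 16615556 in transgenic replicates 1 and 2.

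These enzymes handle reactive oxygen in successive steps. SODs turn superoxide into hydrogen peroxide, with iron forms (FSD) in plastids, a manganese form (MSD1) in mitochondria and copper/zinc forms (CSD) in the cytosol, plastids and peroxisomes. Catalases split hydrogen peroxide in peroxisomes, where photorespiration in leaves produces it, and ascorbate peroxidases reduce it with ascorbate, which the ascorbate and glutathione reductases then restore. The alternative oxidase passes electrons from ubiquinol to oxygen and thereby bypasses the cytochrome part of the mitochondrial chain.

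The first question was how abundant the transcripts were in these seedlings. CAT3 exceeded all the others by an order of magnitude, in every library. Levels are given as the authors' RPKM (reads scaled to transcript length and to the library total). CAT3 stood at 1068.6 and 1064 RPKM in wild type, against 1023.8 and 962.1 RPKM in the transgenic pools. By RPKM it ranked between 53 and 57 from the top among all loci in each library.

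**Figure D1:**
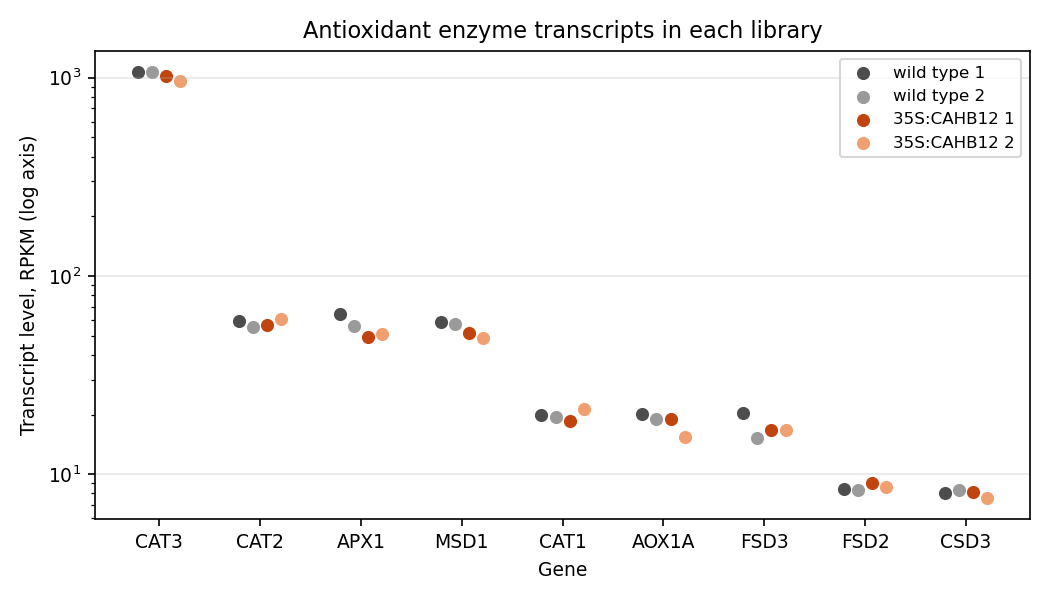
Transcript level (RPKM, log axis) of the 9 genes in each of the 4 libraries, with 1 point for each library and the genes ordered by mean. CAT3 lies at 962.1 to 1068.6 RPKM, and the next genes lie at or below 64.4 RPKM.

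CAT2, the main catalase of photosynthetic leaves, had 59.6 and 55.4 RPKM in wild type and 56.6 and 60.9 RPKM in transgenic seedlings. CAT1, the third catalase gene, had 19.9 and 19.5 RPKM in wild type and 18.6 and 21.2 RPKM in transgenic seedlings. The groups overlapped for both genes, and for CAT1 the transgenic values enclosed the wild-type values. CAT3 was 15.8 to 19.2 times as high as CAT2 and 45.4 to 54.9 times as high as CAT1 over the 4 libraries, whereas CAT2 was 2.84 to 3.04 times as high as CAT1. CAT1 and CAT3 are next to each other in the genome, with 0 protein-coding genes between them, although their levels differed by these factors.

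In the order of wild-type levels, APX1 (60.1 ± 6.05 RPKM, SD, n = 2), MSD1 (57.9 ± 1.25 RPKM) and CAT2 (57.5 ± 2.95 RPKM) followed CAT3, and each overlapped its neighbour over the libraries. CAT1 (19.7 ± 0.263 RPKM), AOX1A (19.6 ± 0.728 RPKM) and FSD3 (17.7 ± 3.60 RPKM) formed a second set of overlapping levels. FSD2 (8.37 ± 0.0438 RPKM) and CSD3 (8.17 ± 0.188 RPKM) were lowest and did not overlap each other, with FSD2 above CSD3 in both genotypes. In transgenic seedlings CAT2 (58.8 ± 3.07 RPKM) stood above APX1 (50.2 ± 1.05 RPKM) and MSD1 (49.9 ± 2.07 RPKM), without overlap, and the rest of the order was that of wild type. The deposited lengths of the 9 genes were 1 to 277 bases below the span of the gene model in the name table, introns included. A per-length level of an intron-rich gene is thus lower than it would be per base of spliced transcript.

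The make-up of the catalase pool was therefore dominated by CAT3. Its share of the summed catalase RPKM was 93.1% and 93.4% in wild type against 93.2% and 92.1% in transgenic seedlings. CAT2 made up 5.19% and 4.86% in wild type against 5.15% and 5.84% in transgenic seedlings, and CAT1 made up 1.70% to 2.03% over the 4 libraries. The CAT2 share was 0.465 percentage points higher in transgenic seedlings, with overlapping groups (exact two-sided permutation test, p = 0.6667). With 2 libraries against 2 the smallest p this test can give is 0.3333. The summed catalase level was 1148 and 1138.9 RPKM in wild type and 1099 and 1044.2 RPKM in transgenic seedlings, so it was lower in both transgenic libraries, at that smallest exact p of 0.3333.

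CAT3 and CAT2 are also known as clock outputs with an evening and a morning peak, and the labels do not give the hour of harvest. In these libraries the evening genes TOC1 and LUX stood at 81.5 to 86.8 RPKM and 77.5 to 88.05 RPKM, while the morning gene CCA1 stood at 0.353 to 0.924 RPKM and LHY, also a morning gene, has no row. TOC1 was thus at 88.8 times (wild-type replicate 1) to 236 times (transgenic replicate 2) the level of CCA1. Clock phase was read from these genes only as levels, and its part in the ratio of CAT3 to CAT2 was not tested.

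The second question was whether the 35S:CAHB12 seedlings differed from wild type. None of the 9 tested genes passed edgeR's quasi-likelihood test at a Benjamini-Hochberg adjusted p under 0.05 (adjusted p = 0.605 to 0.987). Over all 20298 genes tested, 17 passed, which is 0.0838%. At an unadjusted p under 0.05 there were 2 of the 9 genes, APX1 and MSD1, both lower in transgenic seedlings, against 4.22% of all genes tested in that direction; 3.7% were higher at that p. DESeq2 called 0 of the 9 and 0.374% of all genes, with 0 of the 9 at an unadjusted p under 0.05, where 3.53% of all genes were. The estimates were small and bounded. The median log2 fold change (transgenic over wild type) of the 9 was -0.093, against 0.0065 over all genes tested, and 6 of the 9 were below 0, against 48.6% of all genes. The outermost ends of the 95% intervals of the 9 log2 fold changes were -0.51 (APX1) and 0.32 (FSD2), which correspond to 1.42-fold lower and 1.24-fold higher.

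**Figure D2:**
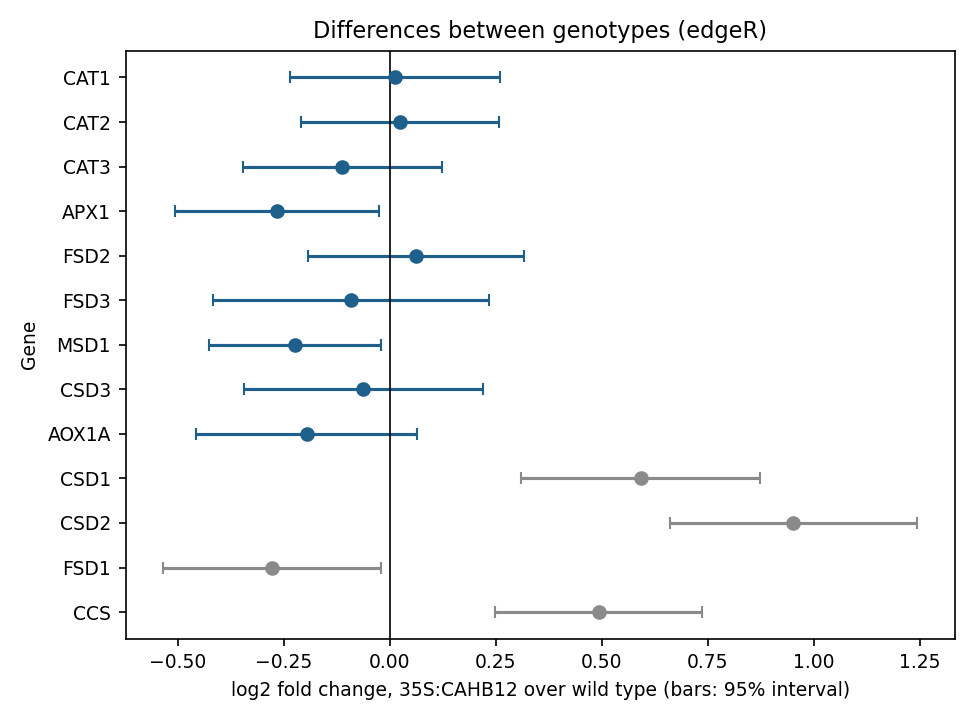
log2 fold change of transgenic over wild-type seedlings by edgeR, with 95% intervals, for the 9 genes (blue) and for FSD1, CSD1, CSD2 and the copper chaperone CCS (grey). The 9 genes lie between -0.27 and 0.06, whereas CSD1, CSD2 and CCS lie between 0.49 and 0.95.

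Fold changes and the following values are on the scale of counts relative to the library total (CPM) with TMM library factors, which compares 1 gene between libraries. CAT3 had 3715.1 and 3714.3 CPM in wild type, against 3465.7 and 3406.8 CPM in the transgenic pools. The wild-type pair differed by far less than the step to the transgenic pair, and the groups did not overlap. Groups did not overlap in CPM for 5 lower genes and 1 higher gene among the 9. The shares over all genes tested were 19.3% and 20.2%. The log2 fold change of CAT3 was -0.11 (SE 0.10; edgeR adjusted p = 0.800), and the 95% interval ran from -0.35 to 0.12. The SE of this test rests on the spread shared by all genes, not on the CAT3 libraries alone.

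APX1, the main cytosolic ascorbate peroxidase, had 150.5 and 131.05 CPM in wild type and 112.6 and 121.3 CPM in transgenic seedlings. Both transgenic libraries lay below both wild-type libraries, and wild-type replicate 1 was the highest. The log2 fold change was -0.27 (SE 0.10; 95% interval -0.51 to -0.026), 1.20-fold lower, at an unadjusted p of 0.0339 and an edgeR adjusted p of 0.605. Without wild-type replicate 1 the log2 fold change of APX1 was -0.16, and without wild-type replicate 2 it was -0.37. MSD1, the mitochondrial manganese SOD, had 111.8 and 108.9 CPM in wild type and 95.1 and 93.8 CPM in transgenic seedlings. Here the replicates lay close together and the groups were apart. Its log2 fold change was -0.22 (SE 0.088; 95% interval -0.43 to -0.021), 1.17-fold lower, at an unadjusted p of 0.0347 and an edgeR adjusted p of 0.605. With any 1 library left out, MSD1 kept between -0.25 and -0.20.

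The plastid iron SODs FSD2 and FSD3 form a complex attached to the plastid nucleoid, where they are counted among the proteins associated with the plastid-encoded RNA polymerase. FSD2 had 20.2 and 20.2 CPM in wild type and 21.04 and 21.1 CPM in transgenic seedlings, with replicates close together. The transgenic libraries lay above the wild-type libraries, by a log2 fold change of 0.061 (SE 0.11; edgeR adjusted p = 0.910). FSD3 had 40.8 and 30.7 CPM in wild type and 32.7 and 34.2 CPM in transgenic seedlings. Wild-type replicate 1 stood apart, and the other 3 libraries lay within 30.7 to 34.2 CPM. The log2 fold change of FSD3 was -0.093 (SE 0.14), and it was 0.12 without wild-type replicate 1 and -0.29 without wild-type replicate 2, so its direction rested on that library. FSD3 was 1.82 to 2.41 times as high as FSD2 in RPKM. Among the other 10 genes of polymerase-associated proteins, 0 passed the test, and their log2 fold changes ran from -0.073 to 0.15, with a median of 0.03. PAP7 (PTAC14) had 0.15, PAP2 (PTAC2) 0.11, PAP6 (FLN1) 0.067 and PAP10 (thioredoxin z) -0.073, none past the test.

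CSD3, a peroxisomal copper/zinc SOD, had 13.7 and 14.2 CPM in wild type and 13.5 and 13.2 CPM in transgenic seedlings. The groups touched closely, did not overlap in CPM and overlapped in RPKM, and the log2 fold change was -0.063 (SE 0.12; edgeR adjusted p = 0.919). Its gene model overlaps AT5G18110 and AT5G02875, and that of CAT2 overlaps AT4G35080, so reads may be shared there. AOX1A, the stress-induced alternative oxidase, had 39.2 and 37.3 CPM in wild type and 36.1 and 30.6 CPM in transgenic seedlings, lowest in transgenic replicate 2. The log2 fold change of AOX1A was -0.20 (SE 0.11; edgeR adjusted p = 0.703). It was -0.33 without transgenic replicate 1 and -0.081 without transgenic replicate 2.

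CAT2 and CAT1 gave the smallest differences. CAT2 had 177.9 and 166.1 CPM in wild type and 164.55 and 185.3 CPM in transgenic seedlings, with a log2 fold change of 0.025 (SE 0.10; 95% interval -0.21 to 0.26). CAT1 had 66.45 and 65.5 CPM in wild type and 60.7 and 72.2 CPM in transgenic seedlings, with a log2 fold change of 0.012 (SE 0.11; 95% interval -0.24 to 0.26). In both genes the transgenic replicates enclosed the wild-type values in CPM, with replicate 2 the highest of the 4 libraries. Replicate 2 was above replicate 1 in transgenic seedlings by 0.25 (CAT1) and 0.17 (CAT2) on the log2 scale, and in wild type the same differences were -0.021 and -0.099. The differences between pools of a genotype thus exceeded those between the genotypes for these catalases.

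**Figure D3:**
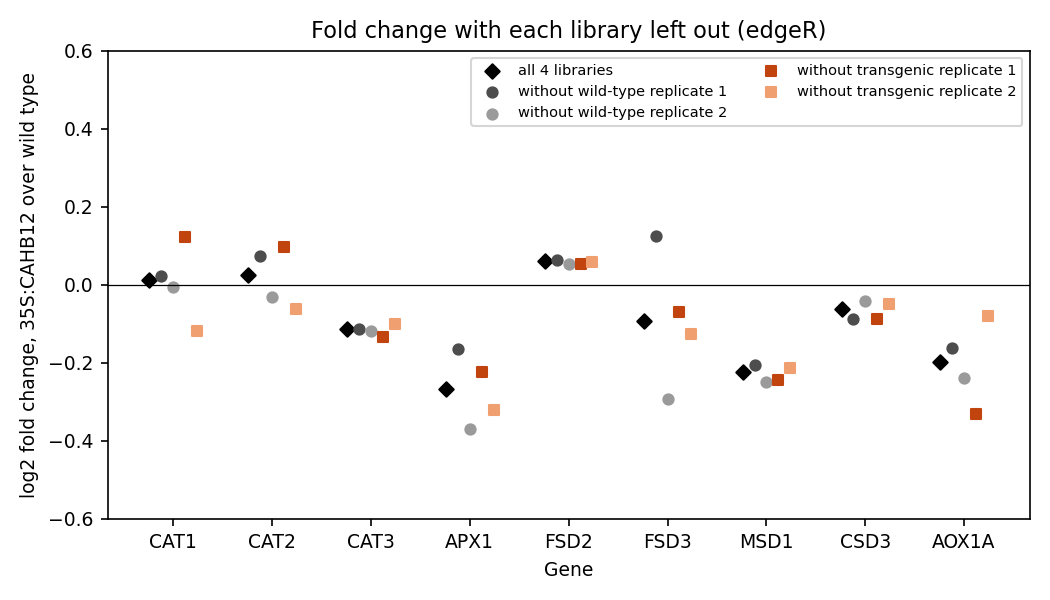
log2 fold change (transgenic over wild type, edgeR) of the 9 genes with all 4 libraries (diamonds) and with each library left out (circles for wild-type, squares for transgenic libraries). CAT3, APX1, MSD1, CSD3 and AOX1A stay below 0 and FSD2 above 0, while CAT1, CAT2 and FSD3 cross 0.

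The third question was how the genes stood beside others of their families and pathways. Other SOD genes showed larger values than the SODs above. CSD2, the plastid copper/zinc SOD, had 10.4 and 11.1 CPM in wild type and 19.8 and 21.9 CPM in transgenic seedlings, with a log2 fold change of 0.95 (edgeR adjusted p = 0.0611). CSD1, the cytosolic form, had a log2 fold change of 0.59 (edgeR adjusted p = 0.253), and CCS, the copper chaperone that loads them, 0.49 (edgeR adjusted p = 0.267). None of the 5 genes of that list passed, and 3 higher genes and 1 lower gene had an unadjusted p under 0.05. The shares over all genes tested were 3.7% higher and 4.22% lower. CSD2 passed in DESeq2 (0.95), with robust fitting, and in edgeR without wild-type replicate 1 (0.91) or wild-type replicate 2 (1.00). With replicate number as a block, CSD2 (0.95), CSD1 (0.59) and CCS (0.49) passed in edgeR. The labels do not say what replicates of the same number share. CSD1 and CCS, like CSD2, are known targets of the microRNA miR398, whereas CSD3 and the iron and manganese SODs are not. Whether miR398 had a part in these differences was not tested, and the small RNA data were not used here. In RPKM, CSD2 stood at 0.625 and 0.643 times the level of CSD3 in wild type and at 1.20 and 1.36 times in transgenic seedlings, with no overlap (the exact test allows no p below 0.3333 here).

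FSD1, an iron SOD and the most abundant SOD transcript here per length, made up 57.4% and 55.0% of the summed SOD RPKM in wild type against 50.5% and 52.9% in transgenic seedlings. It had 361.6 and 313.65 CPM in wild type and 262.8 and 294.2 CPM in transgenic seedlings, a log2 fold change of -0.28 (edgeR adjusted p = 0.605). MSD1 followed with 22.4% to 25.3% of the SOD sum, FSD3 with 6.75% to 8.12%, FSD2 with 3.36% to 4.24% and CSD3 with 3.22% to 3.84% over the 4 libraries. CSD1 had 2.40% and 2.97% in wild type against 4.54% and 4.47% in transgenic seedlings, and CSD2 had 2.01% and 2.37% against 4.63% and 4.79%. The groups did not overlap for FSD1, FSD2, CSD1 and CSD2, each at the smallest exact p of 0.3333.

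**Figure D4:**
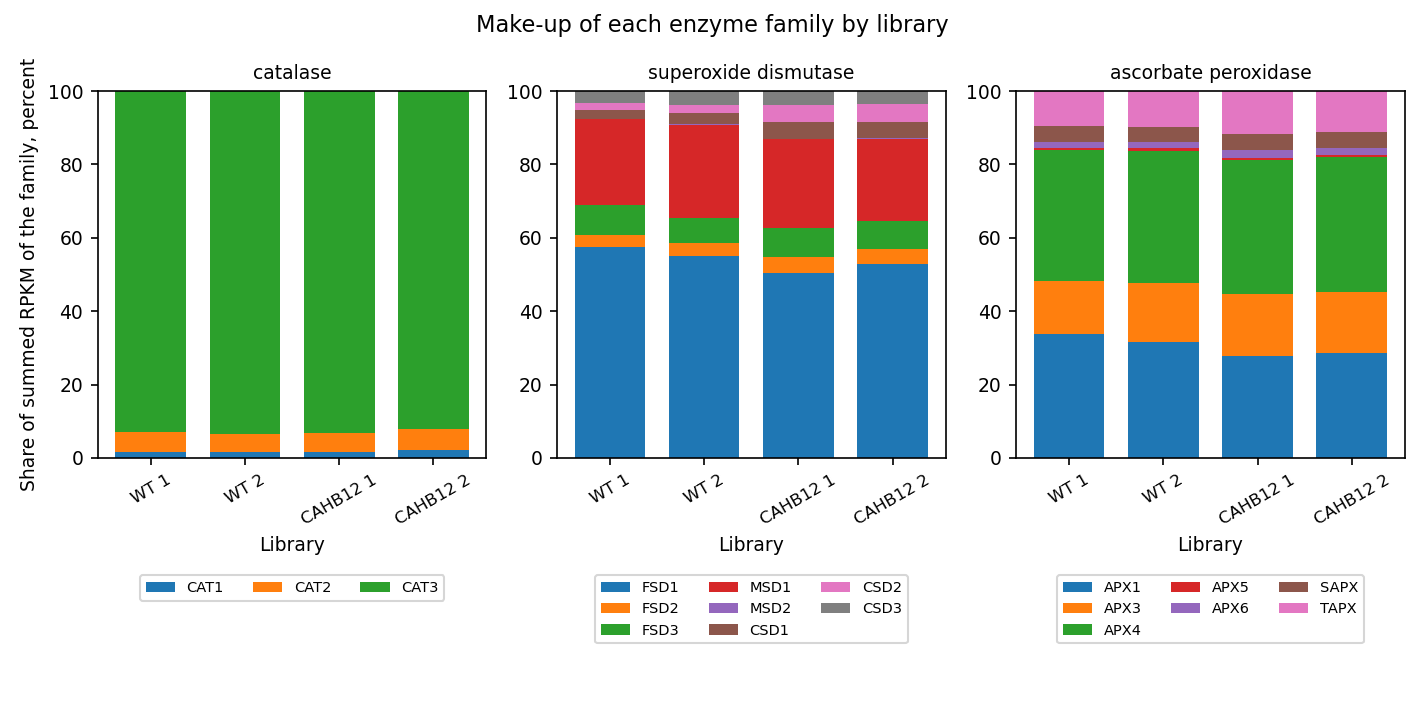
Share of each gene in the summed RPKM of the catalases, the SODs and the ascorbate peroxidases, in percent, with 1 bar for each library. CAT3 makes up 92.1% to 93.4% of the catalase bars, and the bands of CSD1 and CSD2 are wider in both transgenic bars.

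APX1 made up 33.6% and 31.6% of the summed ascorbate peroxidase RPKM in wild type against 27.8% and 28.6% in transgenic seedlings. The thylakoid lumen protein APX4 (TL29) held 35.8% to 36.7%, and the peroxisomal APX3 14.5% to 16.9%. Of the other 6 ascorbate peroxidase genes 0 passed the test and 0 had an unadjusted p under 0.05, with log2 fold changes from -0.047 to 0.31. APX6 had 0.31, the thylakoid form TAPX 0.19, APX3 0.088 and the stromal form SAPX -0.047. The direction of APX1 was thus not that of TAPX or APX6, a difference that was not tested.

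Genes for the synthesis and the reduction of ascorbate and glutathione had log2 fold changes from -0.38 (VTC4) to 0.25 (VTC5). Of the 12 recycling genes 0 passed and 1 lower gene had an unadjusted p under 0.05, against 4.22% of all genes tested in that direction. That gene was DHAR1, a dehydroascorbate reductase gene, with a log2 fold change of -0.23. DHAR3, its plastid counterpart, had 0.16, and the monodehydroascorbate reductase genes MDAR1 and MDAR2 had -0.14 and -0.14. Of the 7 ascorbate synthesis genes 0 passed, with a median of -0.016. VTC4 had -0.38, VTC5 0.25, GME 0.22 and GALDH 0.089. Peroxiredoxins and glutathione peroxidase-like enzymes, which also remove peroxides, had a median of 0.014 over 12 tested genes, with 0 past the test. GPX1 and GPX2 had 0.23 and 0.29 with unadjusted p of 0.0296 and 0.0495, the thioredoxin-dependent PRXIIB -0.15 and 2CPB 0.11.

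Photorespiration genes, whose pathway supplies peroxisomal hydrogen peroxide through glycolate oxidase, were higher in both transgenic libraries than in both wild-type libraries for 9 of 9 genes, where 20.2% of all genes tested were. None passed edgeR's test over all genes, and 6 of the 9 had an unadjusted p under 0.05, against 3.7% of all genes tested in that direction. The median log2 fold change was 0.24, with a range of 0.15 to 0.31. GGT1, a glyoxylate aminotransferase gene, had 553.3 and 563.85 CPM in wild type and 671.7 and 710.05 CPM in transgenic seedlings (log2 fold change 0.31, edgeR adjusted p = 0.514). GLDP1 (glycine decarboxylase), GOX2 (glycolate oxidase) and GLYK (glycerate kinase) had 0.29, 0.30 and 0.23. The catalases stood at -0.11 to 0.025 beside them. The difference between these lists was not tested, and both were chosen with earlier results of these data known.

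**Figure D5:**
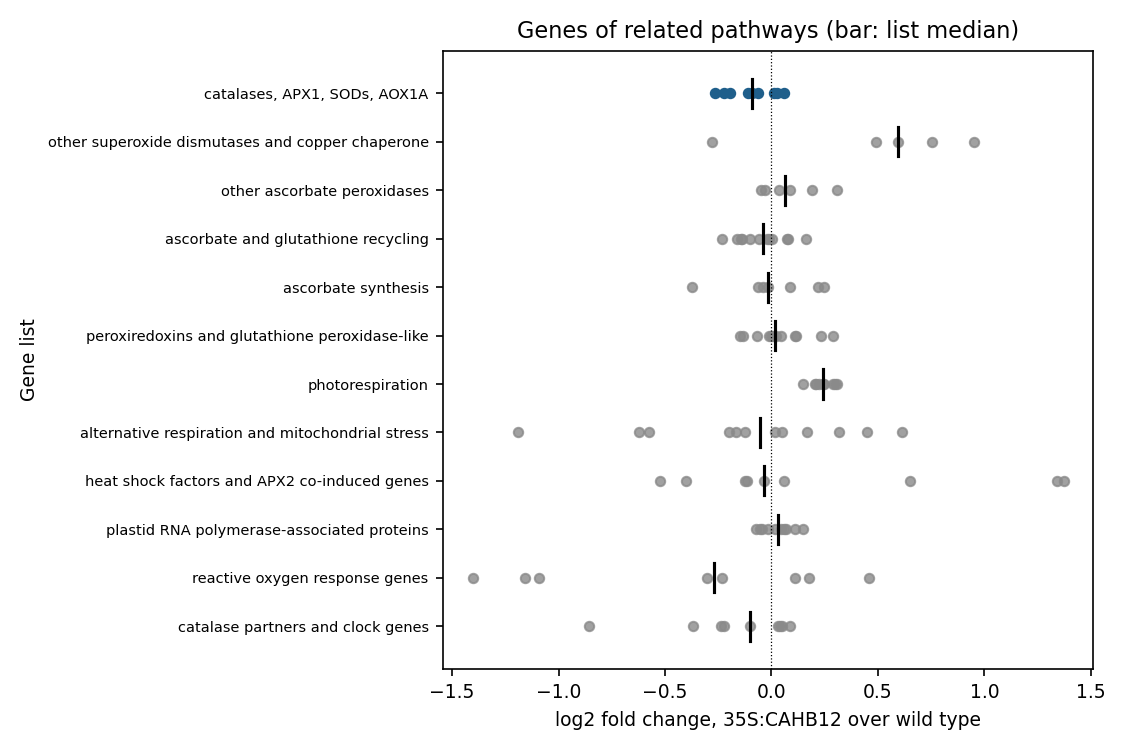
log2 fold change (transgenic over wild type, edgeR) of each tested gene in the 9 genes (blue) and in 11 lists of related genes (grey), with a bar at each median. The 9 genes have a median of -0.093, and the photorespiration list lies to the right of 0 as a whole.

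APX2 is known as a heat and high-light gene driven by heat shock factors. With APX2 not analysed here, the factor gene HSFA2 and genes induced with APX2 were read instead. HSP17.6A, HSFA2 and HSP101 showed 1.37, 1.34 and 0.65 on the log2 scale (edgeR adjusted p = 0.0969, 0.373 and 0.253), and HSFA8 showed -0.52. Of that list of 9 genes, 0 passed and 3 had an unadjusted p under 0.05, all higher, against 3.7% of all genes tested in that direction. The list median was -0.037, with 4 genes above 0 and 5 below. HSFA2 was low throughout, at 1.66 and 1.45 CPM in wild type and 5.12 and 2.76 CPM in transgenic seedlings, and its log2 fold change was 0.82 without transgenic replicate 1. HSP17.6A passed in DESeq2 (1.37), and in edgeR without wild-type replicate 1 (1.23), wild-type replicate 2 (1.54) or transgenic replicate 2 (1.63). HSFA8 passed as lower without wild-type replicate 2 (-0.93) and was at 0.0021 without wild-type replicate 1.

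Beside AOX1A, the genes AOX1B, AOX1C, AOX1D and AOX2 have no row and were not analysed here. Of the 12 tested genes of alternative respiration and mitochondrial stress, 0 passed, with a median of -0.054. UGT74E2, a glycosyltransferase gene induced by mitochondrial stress, had 14.4 and 17.5 CPM in wild type and 21.9 and 27.1 CPM in transgenic seedlings (log2 fold change 0.62, edgeR adjusted p = 0.341). OM66 had -0.62, the alternative NAD(P)H dehydrogenase gene NDA1 -0.58 and the dicarboxylate carrier gene DIC2 -1.19. DIC2 stood at 17.2 CPM in wild-type replicate 1 and at 3.80 to 5.94 CPM in the other 3 libraries. Without wild-type replicate 2, UGT74E2 (0.76), OM66 (-0.94) and DIC2 (-1.83) passed. Without wild-type replicate 1, OM66, DIC2 and NDA1 had only -0.26, -0.14 and -0.23, and UGT74E2 had 0.49, none past the test. Of these 12 genes, which do not include AOX1A, 6 had log2 fold changes above 0 and 6 below 0, and no test compared them with AOX1A.

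Wild-type replicate 1 also stood apart for some, not all, of 8 genes that respond to reactive oxygen and other acute stress. WRKY33 had 63.5 CPM there and 19.5 to 21.5 CPM in the other 3 libraries, ZAT10 had 5.75 against 1.84 to 2.74 CPM, and ERF6 had 32.2 against 9.08 to 18.6 CPM. Summed over the 8 genes of that list, the level was 124 CPM in wild-type replicate 1 and 59.8 to 69.6 CPM in the other 3. WRKY33 and ERF6 were the largest parts of the sum in wild-type replicate 1. ZAT12 was instead highest in wild-type replicate 2 (5.90 CPM, against 4.72 CPM in replicate 1), and GSTU24 was lowest in wild-type replicate 1 (11.7 CPM). Of the 8, 0 passed, and GSTU24 had 0.46 beside -1.40 (ERF6), -1.16 (ZAT10) and -1.09 (WRKY33). Without wild-type replicate 2, ERF6 (-1.76), ZAT10 (-1.62) and WRKY33 (-1.69) passed, and ERF6 also passed without wild-type replicate 1 (-0.96) and in DESeq2 (-1.41). WRKY33 and ZAT10 fell short without wild-type replicate 1, at -0.12 and -0.55, and GSTU24 had 0.29 there. Wild-type replicate 1 also held the highest CPM of APX1, FSD3, MSD1, AOX1A and CAT3. For CAT3 the margin was slight, at 3715.1 CPM against 3714.3 CPM in wild-type replicate 2. CAT1, CAT2 and FSD2 were highest in transgenic replicate 2, and CSD3 in wild-type replicate 2. The part of the stress transcripts of wild-type replicate 1 in the differences of these genes was not tested. NCA1 and LSD1, whose proteins bind catalase, had log2 fold changes of 0.032 and 0.039, and among the clock genes CCA1, GI, PRR7 and PRR5 had -0.86, -0.37, -0.24 and -0.23, none past the test. Without wild-type replicate 1, CCA1 had -0.42 and GI 0.012.

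Over all 11 lists, 99 of 105 genes were tested and 0 passed edgeR's test, with 16 higher and 8 lower at an unadjusted p under 0.05. The shares over all genes tested were 3.7% higher and 4.22% lower. DESeq2 called 3 of the 99 genes, CSD2, HSP17.6A and ERF6, against 0.374% of all genes. The median log2 fold change of the 99 genes was 0.024.

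Tissue markers were read as a check on the pools. All 5 leaf markers were abundant (summed 20456 to 23782 CPM), as was PYK10 among the 6 root markers (summed 1254 to 1592 CPM), and 4 of 5 flower markers have no row. No leaf or root marker passed the test. Among the root markers 4 of 6 were lower in transgenic seedlings, with a median log2 fold change of -0.55. PHT1;1, NRT2.1 and COBL9 had -0.65, -0.65 and -0.63 (unadjusted p = 0.000179, 0.0169 and 0.0491), and PYK10 had 0.30. Among the leaf markers the median was -0.26, and 3 of 5 were lower with no overlap between the groups, where 19.3% of all genes tested were. These were LHCB1.1 (-0.44, unadjusted p = 0.0137), LHCB2.1 (-0.58, unadjusted p = 0.0298) and CAB3 (-0.26), while RBCS1A and RCA had 0.0038 and 0.049. For LHCB2.1 the log2 ratio of replicate 2 to replicate 1 was of like size, -0.59 in wild type and -0.55 in transgenic seedlings. The part of the leaf and root markers in the lower values of APX1, MSD1 and CAT3 was not tested. Seed storage and oil body transcripts, a sign of remaining seed material, summed to 19.7 and 45.8 CPM in wild type and 2.21 and 119 CPM in transgenic replicates 1 and 2. CAT1 and CAT2, with their highest values in transgenic replicate 2, moved with that sum within the transgenic group. Within wild type they moved against it, with 66.45 and 65.5 CPM for CAT1 and 177.9 and 166.1 CPM for CAT2 in replicates 1 and 2. The part of the seed sum in the CAT1 and CAT2 values was not tested. In whole seedlings, fewer cells of a type and less RNA per cell cannot be told apart.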

How the data were processed

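Messenger RNA of 4 pools of seedlings was measured. Per the file headers, the deposited table holds read counts of each locus, a transcript length (other unit, bases) and RPKM made by the authors from both. Among tools, BWA 0.5.8c, Bowtie and edgeR appear in the submitters' processing notes, with TAIR9 as the build; the role of each is not given. Every locus listed reached 11 counts in some library. The name table (TAIR10.1, for names, neighbours and overlaps) held 98.64% of loci.

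Counts were fitted over the whole table with edgeR 4.0.16 in R 4.3.3 (TMM, filterByExpr, glmQLFit, glmQLFTest, no covariate, Benjamini-Hochberg adjusted p under 0.05 over 20298 genes). The SE is the log2 fold change over the root of F, and 95% intervals use the fit's degrees of freedom and are not adjusted for the number of genes. The common biological coefficient of variation was 0.103. CPM use TMM factors, and 3 counts correspond to 0.155 to 0.192 CPM. The simulation gave all genes the common coefficient of variation and planted changes at random over genes of all levels. On simulated data with 200 of 20153 genes planted, 35.82% of planted 1.5-fold changes, 86.57% of 2-fold and 96.97% of 4-fold changes were found. Alternatives used DESeq2 1.42.0, limma 3.58.1 on log2(RPKM + 0.5) and log2(RPKM + 0.1), other scalings, filters, robust fitting, a replicate block and each library left out. Figures used Python 3.11.15 and matplotlib 3.10.9.

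The 9 measured genes were all named, with up to 4 genes of each list by the smallest p. APX4, TOC1, LUX, LHY, NCA1, LSD1 and tissue markers are named outside that rule, after their values were seen. The genes and lists were chosen with earlier results of these data known. Promoter motifs, planned at first, and the small RNA table were not used here.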

Additional observations from a re-analysis of the deposited data

How the results depend on the processing

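None of the 9 genes passed in any of the 14 alternatives run. Of the 117 fold changes under other fits (13 fits for each gene), 112 kept their direction. The 5 that turned all left out 1 library: CAT1 (range -0.12 to 0.12), CAT2 (-0.063 to 0.098) and FSD3 (-0.29 to 0.12). The count of all genes called moved from 17 to 76 with DESeq2, 9 and 11 with limma on log2(RPKM + 0.5) and log2(RPKM + 0.1), 31 with robust fitting, 41 at an adjusted p under 0.1, and 16 to 411 with 1 library left out (411 where wild-type replicate 2 was left out, 72 where wild-type replicate 1 was). Of the related genes, 3 were called by DESeq2, 1 by robust fitting, 2 at an adjusted p under 0.1, and 0 to 9 with 1 library left out. The cause was not tested. Ranges over left-out libraries also crossed 0 for SAPX (-0.18 to 0.085), MDAR2 (-0.29 to 0.012), HSFA8 (-0.93 to 0.0021), PAP10 (-0.16 to 0.0019), GI (-0.70 to 0.012) and PRR7 (-0.60 to 0.045). The CAT2 share difference was 0.406 points by counts, and 0.123 to 0.808 points with 1 library left out.

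With replicate number as a block, 596 genes were called in all, 12 of them related genes and 0 of the 9. CSD2, CSD1, CCS, HSP17.6A, HSP101, UGT74E2 and DIC2 were among the 12. Differences between replicates 2 and 1 correlated with r = 0.228 between genotypes over 20298 genes. There are only 2 such pairs, and no label says what samples of the same replicate number share. In simulation, with 1 common spread for all genes, 35.82% of 1.5-fold changes were found. No smaller change was planted, so detection of differences as small as those of the 9 genes, at their own levels and spreads, was not measured. The absence of calls among the 9 genes does not show that they were unchanged.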
